A study of Mus musculus with 24 samples.

Results

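The semaphorins, plexins, neuropilins, ephrins, Eph receptors, netrins and netrin receptors are the classic families of axon guidance molecules. They were examined here in the hippocampus of adult mice that lack functional CBP, the histone acetyltransferase and transcriptional coactivator encoded by Crebbp, in excitatory neurons. Members were the genes of the count table whose symbols start with Sema, Plxn, Epha, Ephb, Efna, Efnb or Unc5, together with Nrp1, Nrp2, Ntn1, Ntn3, Ntn4, Ntng1, Ntng2, Dcc and Neo1. The spelling matched 69 of the 55471 genes in the table, 3 of them antisense genes that were left out, so 66 members remained. Of these, 64 belong to the 11 families described below. Unc50 and Unc5cl fit the spelling alone, are not netrin receptors and are counted as members without a family.

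Guidance proteins work as ligand and receptor pairs on the surface of neighbouring cells. Semaphorins bind plexins, the secreted class 3 forms mostly with a neuropilin as coreceptor, and ephrins bind Eph receptor tyrosine kinases and can signal back into the cell that carries them. Netrins attract growth cones through Dcc and neogenin (Neo1) and repel them through Unc5 receptors, whereas the membrane-anchored netrin-G proteins bind leucine-rich repeat partners at synapses. In the adult hippocampus these families are known for their part in dendritic spines, synapse stability and mossy fiber connections.

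RNA was sequenced from the hippocampus of 12 individual female C57BL/6 mice aged 3 to 6 months, 3 mice in each of 4 groups. CBP-ifKOs carried the floxed Crebbp alleles (Crebbp f/f) and the Camk2a-creERT2 driver, which is active in excitatory forebrain neurons, and their control littermates were creERT2 negative. All 12 animals, controls included, received tamoxifen in 5 intragastric administrations of a solution of 20 mg/mL. Mice of both genotypes were housed either in standard cages (SC) or in an enriched environment (EE) with toys and running wheels. Because whole hippocampus was sequenced, cells without the driver contributed to each value, and fewer cells of a type and less RNA per cell cannot be told apart. The replicates are separate mice.

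Levels are given as CPM (each gene's share of a library's counts), scaled with TMM factors so that samples can be compared, and differences as log2 fold changes with their standard errors. A member was called when its adjusted p fell below 0.05 in edgeR's quasi-likelihood test, with p-values adjusted over every gene tested. Total counts ran from 26874015 to 27971488 in controls and from 28582210 to 37448388 in CBP-ifKOs, where all counts were even numbers. Whether each CBP-ifKO read was counted 2 times was not tested. If so, these totals would be 14291105 to 18724194, below those of the controls, the floor of 3 counts would lie at 0.16 to 0.21 CPM in CBP-ifKOs, and the counts of CBP-ifKOs printed here would be halved likewise. Crebbp itself ranged from 69.6 to 81.9 CPM in the 6 controls and from 44.5 to 51.5 CPM in the 6 CBP-ifKOs. It was lower in CBP-ifKOs in both housings, by -0.58 ± 0.06 in SC and -0.64 ± 0.06 in EE (log2, SE, edgeR adjusted p = 0.000542 and 0.000407). One library stood apart, since the Control EE replicate 1 sample held 1130 CPM of Ttr, a choroid plexus transcript that ranged from 4.05 to 32.3 CPM in the other mice. Without that sample, the count of called members went from 11 to 14 in EE and from 19 to 23 over both housings, and 18 of those 19 were called again, with Sema6c the exception (edgeR adjusted p = 0.0637). Ttr also differed in SC, where it read 26, 21.4 and 20.7 CPM in controls and 7.17, 6.02 and 7.73 CPM in CBP-ifKOs (-1.70 ± 0.12, edgeR adjusted p = 2.2e-05). The part of choroid plexus RNA in the results was not tested.

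Some markers of hippocampal cells differed between the genotypes, with calls counted over both housings. The summed level of 3 CA1 pyramidal cell markers ran from 362 to 427 CPM in controls and from 249 to 283 CPM in CBP-ifKOs, with 2 of the 3 called lower. For 3 CA2 markers the ranges were 150 to 167 and 78.8 to 96.8 CPM. Only 1 of the 3, Rgs14, was called lower, and Amigo2 and Cacng5 were not called. The mean of Rgs14 was 110 CPM in controls and 51.5 CPM in CBP-ifKOs in SC, and 120 and 50.4 CPM in EE. For 3 CA3 markers the ranges were 264 to 314 and 212 to 248 CPM, with 2 of 3 called lower. For 4 markers of dentate granule cells, 2 of them called lower, the ranges overlapped in SC (358 to 397 and 334 to 364 CPM) and not in EE (342 to 406 and 309 to 319 CPM). The 2 called were C1ql2 and Dsp, and Prox1 and Calb1 were not called. The mean of C1ql2 was 66.4 CPM in controls and 21.8 CPM in CBP-ifKOs in SC, and 63.9 and 16.9 CPM in EE. The 3 markers of oligodendrocyte precursors, all called lower, summed to 145 to 165 CPM in controls and 115 to 139 CPM in CBP-ifKOs. The sums of 4 excitatory neuron markers, 1 of them called lower (5470 to 6000 against 5120 to 5870 CPM), and of 5 oligodendrocyte markers, none called (3320 to 4720 against 3530 to 4400 CPM), overlapped between the genotypes. Within each housing the sums of 4 microglia markers, 2 called lower, were apart, at 223 to 227 against 200 to 221 CPM in SC and 211 to 228 against 191 to 197 CPM in EE, lower in CBP-ifKOs. The same held for 6 interneuron markers, 1 called lower and 1 higher (851 to 917 against 795 to 832 CPM in SC and 870 to 946 against 820 to 855 CPM in EE). The sum of 4 astrocyte markers, 1 called lower, was apart in EE (1120 to 1240 against 1010 to 1050 CPM), with 1160 to 1370 against 1140 to 1160 CPM in SC. The lists for Cajal-Retzius cells and the thalamus had 1 of 3 called lower each, that for the choroid plexus 1 of 4 (Ttr), and that for endothelial cells none of 3. Cajal-Retzius sums overlapped in both housings (64.6 to 89.5 against 68.3 to 80.3 CPM over all mice). Thalamus sums were apart in EE (30.4 to 36.3 against 23.3 to 27.4 CPM) and not in SC (26.3 to 41 against 26.3 to 30.1 CPM), and those of endothelial and choroid plexus markers were apart in SC (124 to 133 against 107 to 121 CPM and 24.5 to 28.2 against 7.4 to 9.74 CPM) and not in EE (108 to 122 against 103 to 116 CPM and 10.4 to 1170 against 5.92 to 36.4 CPM). Of all these markers, 1 (for Cajal-Retzius cells) was at 0 in some mouse. The part of these marker differences in the results on guidance genes was not tested.

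All 66 members had counts in all 12 mice, although Efna4 had 2 counts in the CBP-ifKO EE replicate 3 sample, below the floor of 3 counts. Together they took 0.366 to 0.405% of the counts in controls and 0.344 to 0.365% in CBP-ifKOs, so the genotypes did not overlap in this share. To compare levels between genes, CPM were divided by the exon length in kilobases. Over the 12 mice, Epha4, a receptor for both classes of ephrins, was the most abundant member (47.6 CPM per kilobase). It was followed by Efnb3, a transmembrane ephrin (44.9), Sema7a, the GPI-anchored semaphorin (34.2), and Unc5a, a repulsive netrin receptor (32.3), all in CPM per kilobase. The order of the first pair turned in control mice in SC, where Efnb3 read above Epha4. The leading members of the other families were Ephb6, an Eph receptor without kinase activity (21.3), Plxna1, a plexin of the class 3 and class 6 semaphorins (19.6), Efna3, a GPI-anchored ephrin (18.5), and Sema3e, the class 3 semaphorin that binds plexin-D1 without a neuropilin (8.78). Ntng2, the netrin-G that binds Lrrc4 (8.51), Nrp2 (6.52) and Ntn3 (1.99) led the netrin-G, neuropilin and netrin families.

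**Figure D1:**
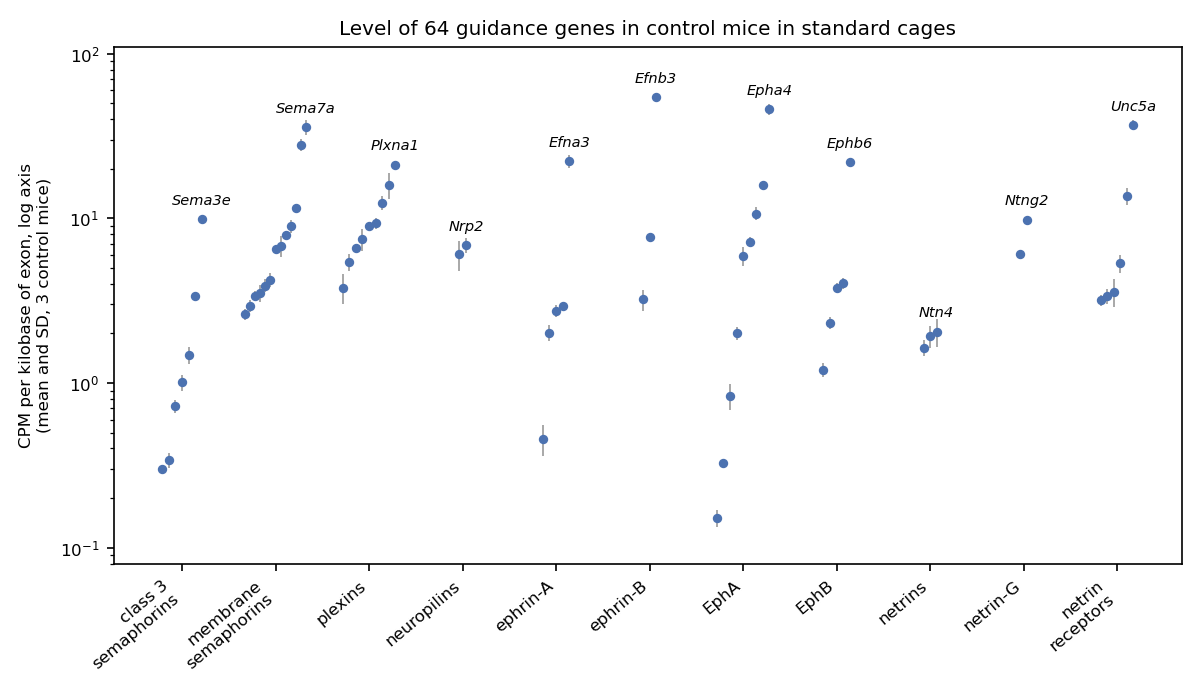
Level of the 64 members that belong to a family in the 3 control mice kept in standard cages, as CPM per kilobase of exon on a log axis, with the mean (point) and SD (bar) of each gene and the name of the highest gene of each family. Efnb3 and Epha4 sit at the top, and the 3 netrins lie close together near 2 CPM per kilobase.

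The families differed in how steep this order was. Among control mice in SC, Efnb3 read 54.6 ± 0.661 CPM per kilobase and the other ephrin-B genes 7.7 ± 0.5 (Efnb2) and 3.22 ± 0.468 (Efnb1) (SD, n = 3). The EphA receptors ran from 0.151 ± 0.0172 for Epha1 to 46.1 ± 3.6 for Epha4. Some neighbours in the order did not differ beyond their spread. For instance, the 3 netrins lay at 2.05 ± 0.4 (Ntn4), 1.93 ± 0.292 (Ntn3) and 1.64 ± 0.173 (Ntn1) CPM per kilobase, and the neuropilins at 6.89 ± 0.719 (Nrp2) and 6.06 ± 1.28 (Nrp1).

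The genotype comparison in SC asked whether expression of guidance genes differed between CBP-ifKOs and control littermates in the standard environment. Of 66 members tested, 12 were called, 10 lower and 2 higher in CBP-ifKOs. Among the 17532 genes tested, 5.52% were called, 4.02% lower and 1.51% higher, against 18.2% of the members. The members that were lower are 8 of the 33 ligands, Efnb3, Efna3, Efna4, Sema3e, Sema3d, Sema5b, Sema7a and Ntng2, and 2 of the 31 receptors, Ephb2 and Unc5a. Those that were higher are Plxna3, a plexin receptor for class 3 semaphorins, and Sema4g, a transmembrane semaphorin. The median log2 difference was -0.14 over the members and -0.0019 over all genes, and 52 of the 66 members had a value below 0, compared with 50.3% of all genes. In 23 members every CBP-ifKO was below every control (13.8% of all genes), and in 4 every CBP-ifKO was above (12.1% of all genes). Without the adjustment, 25 members had a p below 0.05, compared with 20.5% of all genes.

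In EE the comparison was repeated in 6 other mice. Here 11 of 65 members tested were called, 10 lower and 1 higher. The background was 4.57% of 17625 genes called, 3.53% lower and 1.03% higher, against 16.9% of the members. Efnb3, Efna3, Sema3e, Sema7a, Ntng2 and Unc5a were called lower again and Plxna3 was called higher again, so 7 members were called in both housings, in the same direction and in mice that the comparisons do not share. These were 58.3% of the 12 members called in SC and 63.6% of the 11 called in EE, compared with 51.1% and 61.5% of all genes called in each. As a share of the genes tested in both housings, they were 10.8% of 65 members, compared with 2.86% of 17250 genes. Epha10, Ephb3, Plxna4 and Sema5a were called lower in EE and not in SC, so that the lower calls in EE were 6 ligands and 4 receptors, and the interaction of genotype and housing was called for none of them. In SC they were called under 6 (Epha10), 4 (Plxna4), 2 (Sema5a) and 1 (Ephb3) of 14 other settings of the analysis. The median was -0.12 over the members and 0.0135 over all genes, with 50 of 65 members below 0 (47% of all genes). Every CBP-ifKO was below every control in 17 members (13.9% of all genes) and above in 2 (11.4%), and 22 had an unadjusted p below 0.05 (19.6%). Without the Control EE replicate 1 sample, 14 members were called, among them the 11 of the full comparison, at -0.70 (Epha10) to -0.36 (Unc5a) for the 10 that were lower and 0.45 for Plxna3. The 3 calls gained were Nrp1 and Unc5c, both lower (-0.39 ± 0.09 and -0.34 ± 0.08, edgeR adjusted p = 0.0388 and 0.0349), and Sema3b, a class 3 semaphorin, which was higher (1.35 ± 0.32, adjusted p = 0.0337). With all 6 mice Sema3b differed by 0.44 ± 0.45 (edgeR adjusted p = 0.644), since it read 4.19, 1.12 and 1.17 CPM in controls and 4.18, 2.13 and 2.41 CPM in CBP-ifKOs in EE, and the highest control was that same replicate 1 sample.

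**Figure D2:**
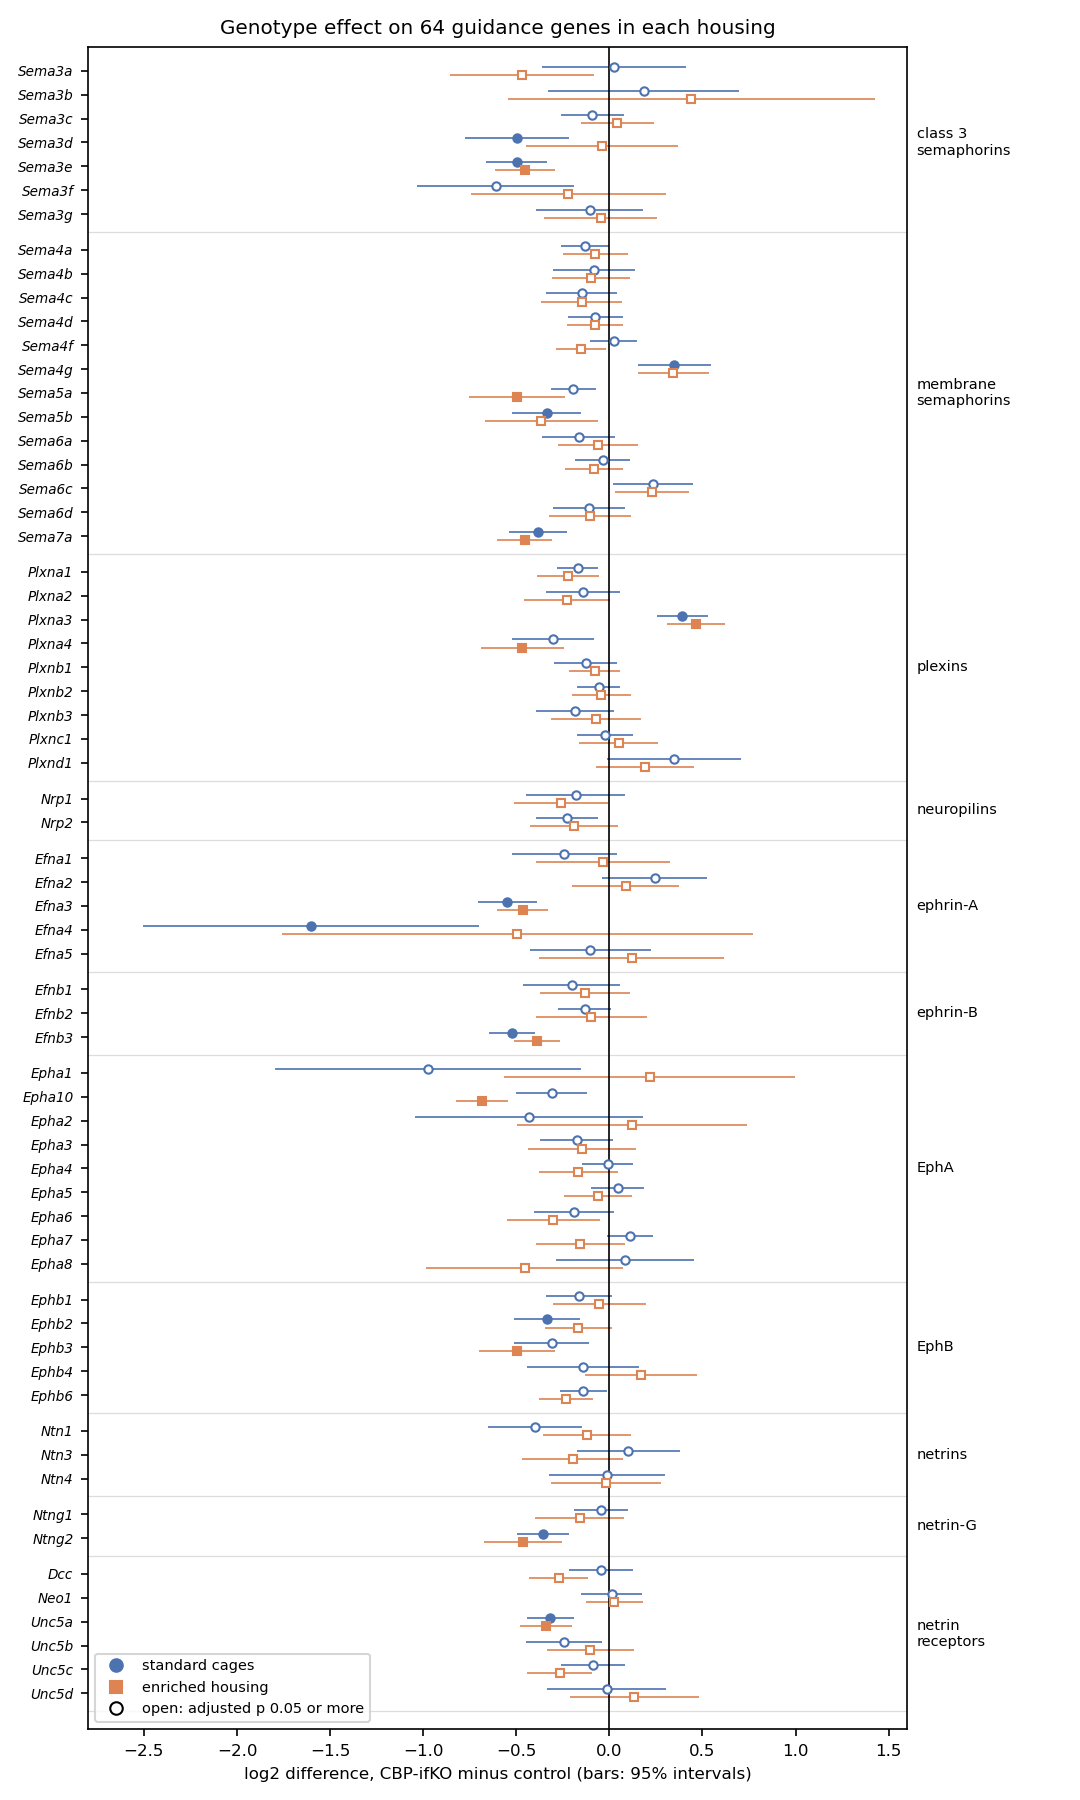
Log2 difference between CBP-ifKOs and controls for the 64 members with a family, in standard cages (circles) and enriched housing (squares), with 95% intervals as bars and filled symbols where the adjusted p was below 0.05. Filled symbols of both kinds lie left of 0 for Sema3e, Sema7a, Efna3, Efnb3, Ntng2 and Unc5a and right of 0 for Plxna3, and the bars are widest for genes of low level such as Efna4, Epha1 and Sema3b.

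Both comparisons placed 51 of the 65 members tested in each on the same side of 0, that is 78.5% compared with 72% of the 17250 genes tested in both. Across these 65 genes, which are not independent replicates, the log2 differences in SC and EE had a Pearson's r of 0.467, and across all 17250 genes r was 0.476. All 12 members called in SC had the same sign in EE, as did 99.1% of the 965 genes called in SC. When the genotypes were compared over both housings, with 12 mice in the fit, 19 of 66 members were called, 16 lower (8 ligands and 8 receptors) and 3 higher. The background was correspondingly higher, at 16.9% of 18251 genes called, 10.3% lower and 6.64% higher, against 28.8% of the members. In this fit 54 of 66 members had a difference below 0 (49.3% of all genes), with a median of -0.15.

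Among the 8 ephrin ligands, Efnb3 and Efna3 were lower in both housings. Efnb3, at chr11:69554092-69560205 on the minus strand (GRCm38), encodes an ephrin that signals in both directions at synapses. It read 175, 171 and 174 CPM in control mice in SC and 113, 122 and 128 CPM in CBP-ifKOs in SC, and 156, 157 and 159 CPM in controls in EE against 122, 120 and 116 CPM in CBP-ifKOs in EE. The genotypes were well separated in both housings. The difference was -0.52 ± 0.06 in SC and -0.39 ± 0.06 in EE (edgeR adjusted p = 0.000497 and 0.00351). Efnb1 and Efnb2 were not called in any comparison, with values between -0.20 and -0.10 in both housings.

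Efna3 read 59.6, 49.8 and 53.2 CPM in controls in SC and 36.3, 38.4 and 36.6 CPM in CBP-ifKOs in SC, then 53.5, 49.5 and 51.7 CPM in controls in EE and 37.8, 36.5 and 37 CPM in CBP-ifKOs in EE. No CBP-ifKO reached the lowest control. The difference was -0.55 ± 0.07 in SC and -0.47 ± 0.06 in EE (edgeR adjusted p = 0.00176 and 0.00256). Efna3 (chr3:89313899-89322965, minus strand) lies between Efna1 (chr3:89271733-89281142) and Efna4 (chr3:89333390-89338028), which are transcribed in the same direction. Efna1, at 4.11 to 5.7 CPM, was not called (-0.24 ± 0.13 in SC and -0.04 ± 0.16 in EE). Efna4 was barely detected. Its counts were 24, 19 and 16 in controls in SC and 8, 4 and 12 in CBP-ifKOs in SC, and although it was called there (-1.60 ± 0.41, edgeR adjusted p = 0.0442), the call was lost when any 1 of the 6 mice was left out (adjusted p from 0.0618 to 0.162). In EE its counts of 8, 9 and 18 in controls and 16, 16 and 2 in CBP-ifKOs overlapped. Efna2 and Efna5 were not called.

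**Figure D3:**
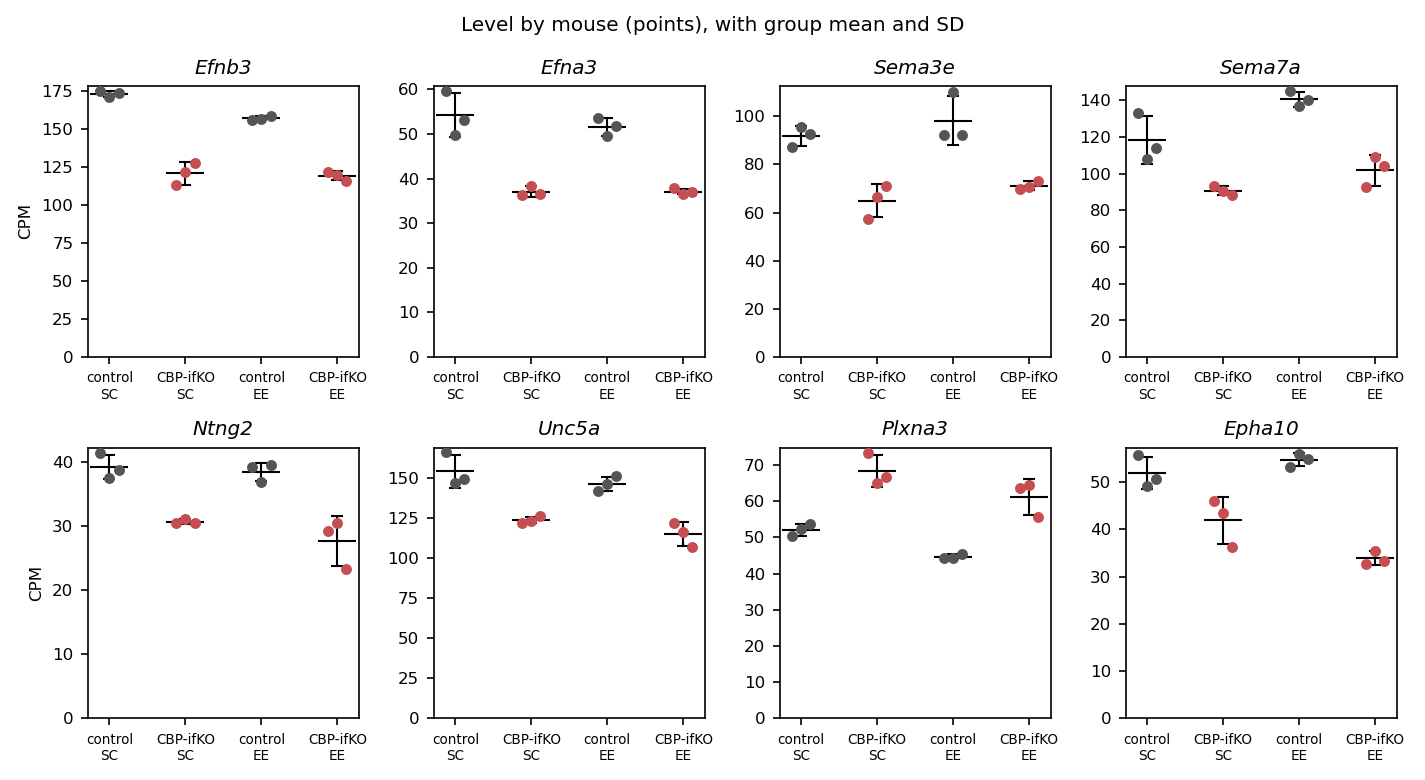
CPM of 8 members in each of the 12 mice, by group, with controls in gray, CBP-ifKOs in red, group means as horizontal lines and SD as bars, all axes starting at 0. CBP-ifKOs lie below the controls of the same housing in 7 panels and above them in the Plxna3 panel, with no overlap in any panel.

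Among the Eph receptors that were called, Epha10 had the largest reduction. Epha10, on chr4:124880899-124917800 (plus strand), encodes a receptor that lacks kinase activity. It read 53.2, 56 and 54.9 CPM in controls in EE and 32.7, 35.5 and 33.3 CPM in CBP-ifKOs in EE, a difference of -0.68 ± 0.06 (edgeR adjusted p = 0.000317). In SC the corresponding values were 55.7, 49.2 and 50.7 CPM in controls and 45.9, 43.4 and 36.3 CPM in CBP-ifKOs. The groups did not overlap there either, but the difference of -0.31 ± 0.09 missed the threshold (edgeR adjusted p = 0.0637). It was called in SC under 6 of 14 other settings of the analysis, among them without the Control SC replicate 2 sample (adjusted p = 0.0343, over a range of 0.00286 to 0.187).

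Of the 14 Eph receptors, 2 EphA and 3 EphB genes were called over both housings, all lower. Ephb3, a receptor for ephrin-B ligands, fell from 25.1 ± 0.904 CPM in controls to 17.7 ± 2.04 CPM in CBP-ifKOs in EE (SD, n = 3). The difference was -0.50 ± 0.09 (edgeR adjusted p = 0.0129), compared with -0.31 ± 0.09 in SC (adjusted p = 0.0787). Ephb2, which organizes NMDA receptors at excitatory synapses, was called in SC (29.4 ± 2.42 against 23.4 ± 1.44 CPM, -0.33 ± 0.08, edgeR adjusted p = 0.0359) and not in EE (-0.17 ± 0.08, adjusted p = 0.291). Over both housings Ephb6 differed by -0.19 ± 0.04 and Epha6 by -0.25 ± 0.08 (edgeR adjusted p = 0.00742 and 0.0497). The most abundant receptor, Epha4, was not called, with -0.01 ± 0.06 in SC and -0.17 ± 0.10 in EE. Epha5 and Ephb1, which can bind the ephrins of their class, were not called either, at 0.05 ± 0.06 and -0.16 ± 0.08 in SC and at -0.06 ± 0.08 and -0.05 ± 0.11 in EE.

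In the semaphorin families, Sema3e and Sema7a were lower in both housings. Sema3e (chr5:14025276-14256689, plus strand) read 87.4, 95.4 and 92.6 CPM in controls in SC and 57.4, 66.5 and 71.1 CPM in CBP-ifKOs in SC, and 92.4, 110 and 92.2 CPM against 69.7, 70.6 and 73.3 CPM in EE. The differences were -0.50 ± 0.08 and -0.45 ± 0.07 (edgeR adjusted p = 0.00355 and 0.00592). Its receptor gene Plxnd1 was not called, with values above 0 in both housings (0.35 ± 0.16 in SC and 0.19 ± 0.12 in EE). Under other settings, Plxnd1 was called higher in 2 of 14 in SC and 1 of 19 over both housings. Sema3e was the most abundant class 3 semaphorin by far, with 9.89 ± 0.436 CPM per kilobase in controls in SC compared with 3.4 ± 0.046 for Sema3c. Of the other 6 class 3 genes, Sema3d was called lower in SC (8.71 ± 0.965 against 6.18 ± 0.511 CPM, -0.50 ± 0.13, edgeR adjusted p = 0.0439). In EE its values overlapped (-0.04 ± 0.19, adjusted p = 0.941).

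Sema7a (chr9:57940112-57962865, plus strand), a ligand of plexin-C1 and integrins, read 133, 108 and 114 CPM in controls in SC and 93.1, 90.5 and 88.5 CPM in CBP-ifKOs in SC. In EE the values were 145, 137 and 140 CPM in controls and 92.6, 109 and 104 CPM in CBP-ifKOs. The groups did not overlap in either housing, with differences of -0.38 ± 0.07 and -0.45 ± 0.07 (edgeR adjusted p = 0.0105 and 0.00457). Plxnc1 was not called (-0.02 ± 0.07 in SC and 0.05 ± 0.10 in EE). Both class 5 semaphorins, which carry thrombospondin repeats, were lower over the 12 mice, Sema5a by -0.35 ± 0.07 and Sema5b by -0.35 ± 0.09 (edgeR adjusted p = 0.00396 and 0.0111). Sema4g and Sema6c were called higher in the same fit, with 0.34 ± 0.07 and 0.23 ± 0.07 (edgeR adjusted p = 0.00248 and 0.0397). Sema4g read 33.9 ± 3.15 CPM in controls and 43.1 ± 4.72 CPM in CBP-ifKOs in SC, and 31.8 ± 0.806 and 40.1 ± 4.82 CPM in EE (SD, n = 3), where the edgeR adjusted p was 0.0503. Under 6 of 14 other settings it was called higher in EE, among them DESeq2 and a fit with all 12 mice.

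Of the 9 plexins, 1 was called higher and 2 lower over the 12 mice, and the other 6 were not called in the comparisons as reported. Among those 6, Plxna2 was called lower under 1 of 14 other settings in EE and 3 of 19 over both housings, and Plxnd1 higher as given above. Plxna3 (chrX:74329066-74344689, plus strand) was the only member called higher in both housings. It read 50.3, 52.4 and 53.7 CPM in controls and 73.4, 65.1 and 66.7 CPM in CBP-ifKOs in SC, and 44.2, 44.4 and 45.5 CPM against 63.7, 64.4 and 55.6 CPM in EE. All CBP-ifKOs were above all controls, by 0.39 ± 0.06 in SC and 0.46 ± 0.07 in EE (edgeR adjusted p = 0.0047 and 0.00488). In contrast, Plxna4, a plexin of class 3 and class 6 semaphorins, was lower in EE (232 ± 35.5 against 167 ± 15.7 CPM, -0.47 ± 0.10, edgeR adjusted p = 0.0257). Plxna4 and Plxna1 were both lower over the 12 mice, by -0.39 ± 0.08 and -0.20 ± 0.05 (edgeR adjusted p = 0.00399 and 0.00718). None of the 3 plexin-B genes was called, and neither was a neuropilin in the comparisons as reported. Nrp2 differed by -0.23 ± 0.08 in SC and -0.19 ± 0.11 in EE (edgeR adjusted p = 0.109 and 0.364) and Nrp1 by -0.18 ± 0.12 and -0.26 ± 0.11 (0.447 and 0.238). Without the Control EE replicate 1 sample, both were called lower over both housings (Nrp1 -0.29 ± 0.09 and Nrp2 -0.25 ± 0.07, edgeR adjusted p = 0.0429 and 0.0367), and Nrp1 in EE as given above. In all, Nrp2 was called lower under 2 of 14 other settings in SC and 5 of 19 over both housings, and Nrp1 under 2 of 14 in EE and 4 of 19 over both housings, some of which kept every mouse (no filter for both, DESeq2 for Nrp2 and the replicate block for Nrp1).

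Of the netrin families, 2 genes were lower in both housings, 1 netrin-G protein and 1 netrin receptor. Ntng2 (chr2:29194541-29253005, minus strand) read 41.3, 37.5 and 38.7 CPM in controls and 30.4, 31.1 and 30.4 CPM in CBP-ifKOs in SC, and 39.1, 36.8 and 39.4 CPM against 29.2, 30.5 and 23.2 CPM in EE. The difference was -0.36 ± 0.06 in SC and -0.46 ± 0.10 in EE (edgeR adjusted p = 0.00828 and 0.0206), whereas its relative Ntng1 was not called (-0.05 ± 0.07 and -0.16 ± 0.11). Unc5a (chr13:54949411-55006018, plus strand) read 166, 147 and 149 CPM in controls and 122, 123 and 126 CPM in CBP-ifKOs in SC, and 142, 146 and 151 CPM against 122, 116 and 107 CPM in EE. Again the genotypes were separated, with -0.32 ± 0.06 in SC and -0.34 ± 0.06 in EE (edgeR adjusted p = 0.0097 and 0.0139). The other netrin receptors were not called, among them Neo1 (0.01 ± 0.08 in SC and 0.03 ± 0.07 in EE) and Dcc (-0.04 ± 0.08 and -0.27 ± 0.07, edgeR adjusted p = 0.802 and 0.057). Dcc was called lower under 5 of 14 other settings in EE and under 5 of 19 over both housings. Unc5c, a repulsive netrin receptor (-0.09 ± 0.08 in SC and -0.27 ± 0.08 in EE, edgeR adjusted p = 0.591 and 0.0873), was called lower under 3 of 14 settings in EE (DESeq2, no filter, and without the Control EE replicate 1 sample) and 5 of 19 over both housings. Ntn1, the secreted ligand of Dcc, was called over both housings (-0.26 ± 0.07, edgeR adjusted p = 0.0217), with 10.3 ± 1.08 CPM in controls and 7.77 ± 0.587 CPM in CBP-ifKOs in SC and 9.02 ± 0.324 and 8.24 ± 0.38 CPM in EE. In neither housing alone was it called (-0.40 ± 0.12 in SC and -0.12 ± 0.11 in EE, edgeR adjusted p = 0.0724 and 0.585).

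Several calls based on 6 mice were lost when 1 mouse was left out. As the group is then smaller, a lost call alone does not show that 1 animal carried the difference. Efnb3, Efna3, Sema3e and Plxna3 were called in SC and in EE under all 14 other settings of each comparison, which changed the tool, the scaling or the filter or left out a mouse. Sema7a in SC lost its call without the CBP-ifKO SC replicate 2 or 3 sample (adjusted p = 0.0549 for each), and Unc5a in SC without the CBP-ifKO SC replicate 1 or 2 sample (0.0544 and 0.0585). In EE, leaving out the Control EE replicate 3 or the CBP-ifKO EE replicate 3 sample ended the calls of Ntng2 (adjusted p = 0.0863 and 0.0621), Unc5a (0.0656 and 0.0854) and Ephb3 (0.0592 and 0.0523). For Plxna4 they were 0.0742 and 0.135, and for Sema5a 0.0952 and 0.12. Plxna4 also lost its call without the CBP-ifKO EE replicate 1 sample (0.0941), and Sema5a without the Control EE replicate 2 (0.0584), CBP-ifKO EE replicate 1 (0.123) or CBP-ifKO EE replicate 2 (0.067) sample. Of the SC calls, Sema3d lost significance when any mouse but Control SC replicate 1 was left out (adjusted p up to 0.15), Sema5b when any but Control SC replicate 3 was (up to 0.141), Ephb2 when any but Control SC replicates 2 and 3 was (up to 0.14), and Sema4g when any but Control SC replicate 2 and CBP-ifKO SC replicate 2 was (up to 0.174). With all 12 mice in the fit, the SC calls of Efna4, Sema3d and Sema5b were lost (adjusted p = 0.0911, 0.102 and 0.134), and that of Efna4 also with the replicate block (0.058), while DESeq2 and the filter of 1 CPM in 3 mice gave no call for Efna4. With halved and thinned counts, Ephb2, Sema3d and Sema5b lost theirs (0.0666, 0.181 and 0.0738) and Efna4 was not called. Over both housings, Epha6, Sema6c and Ntn1 lost their calls under 10, 8 and 4 of 19 settings, at adjusted p up to 0.122, 0.106 and 0.0867. The exons of some called members overlap those of another gene, on the opposite strand for Efna3 (344 bases), Efna4 (168), Plxna1 (970), Plxna4 (110), Epha6 (107), Epha10 (79) and Unc5a (34), and on the same strand for Ntng2 (558). As no strand setting is given in the sources used here, such reads cannot be assigned with certainty.

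The members Efna3, Efnb3, Epha10, Sema3e and Sema7a belong to the list of genes that the study found changed in CBP-ifKOs. That list was drawn in part from these libraries, so their calls here are not independent evidence of the direction. All of them were lower over the 12 mice, by between -0.51 for Efna3 and -0.42 for Sema7a.

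Beside the members, 50 genes that code for partners and signaling proteins of guidance pathways were examined. They include collapsin response mediators and MICAL oxidoreductases, and also ligands and surface proteins such as Slit2, Robo1 and L1cam. Of these, 2 were called in SC and 5 in EE, all lower in CBP-ifKOs, or 4% and 10% of the list compared with 5.52% and 4.57% of all genes. Dpysl3, a collapsin response mediator that acts on the cytoskeleton, read 73.5, 76.7 and 77.8 CPM in controls and 57.7, 58 and 57.7 CPM in CBP-ifKOs in SC. The difference was -0.40 ± 0.05 there and -0.37 ± 0.06 in EE (edgeR adjusted p = 0.0019 and 0.00428). Mical2, an actin-oxidizing enzyme of the plexin pathway, differed by -0.32 ± 0.05 and -0.39 ± 0.07 (edgeR adjusted p = 0.00328 and 0.00881). Chn1, a Rac GTPase-activating protein downstream of Epha4, was called lower in EE (-0.24 ± 0.06, edgeR adjusted p = 0.034), as were the adaptor gene Nck2 (-0.33 ± 0.07, 0.026) and the guanine nucleotide exchange factor gene Vav3 (-0.47 ± 0.12, 0.0455). Over both housings, 12 of the 50 were called, all lower (24%, compared with 16.9% of all genes).

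Housing was compared within each genotype to ask whether guidance genes responded to enrichment. In control mice no member was called, nor was any of the 18251 genes tested (0%) by edgeR, while in the same comparison DESeq2 called 15 genes and no member. At an unadjusted p below 0.05 there were 5 members and 4.21% of all genes, and 8 members did not overlap between the housings (9.11% of all genes). The 4 smallest p-values among members belonged to Sema7a (0.25 ± 0.07, edgeR adjusted p = 0.902), Plxna3 (-0.22 ± 0.07, 0.931), Epha7 (0.29 ± 0.10, 0.999) and Efnb3 (-0.14 ± 0.05, 0.999). For Sema7a the 3 enriched controls lay above the 3 controls in SC, and for Plxna3 and Efnb3 below them. Epha7, an EphA receptor, read 160, 165 and 150 CPM in SC and 166, 222 and 195 CPM in EE. Without the Control EE replicate 1 sample no member was called in this comparison either. Epha7 then differed by 0.39 ± 0.09 (edgeR adjusted p = 0.406), and the value of Sema3b went from 0.41 ± 0.43 to -0.51 ± 0.33 (adjusted p = 0.999 and 1).

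In CBP-ifKOs no member was called either, against 2 of the 18251 genes (0.011%). By DESeq2, 1 member was called, Sema4f, a transmembrane semaphorin found at glutamatergic synapses (adjusted p = 0.0397). Sema4f read 64.7, 60.9 and 59.2 CPM in SC and 52.3, 54.3 and 50.2 CPM in EE, without overlap (-0.24 ± 0.05, edgeR adjusted p = 0.234). The unadjusted p was below 0.05 in 8 members and in 8.59% of all genes, and 8 members did not overlap between the housings (15.9% of all genes). Next in order were Epha10 (-0.31 ± 0.08, edgeR adjusted p = 0.353), Epha8, at 4.66, 3.67 and 4.18 CPM in SC and 3.05, 2.56 and 2.35 CPM in EE (-0.65 ± 0.22, 0.455), and Sema3c, a class 3 semaphorin (0.23 ± 0.08, 0.473).

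**Figure D4:**
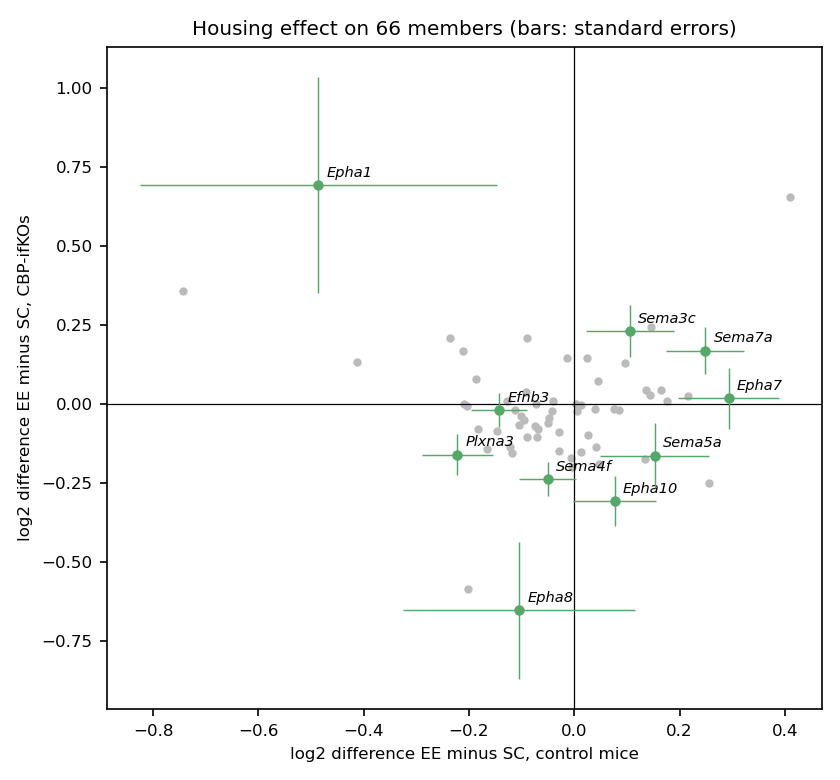
Log2 difference between EE and SC for the 66 members in control mice (horizontal axis) and CBP-ifKOs (vertical axis); each genotype is 6 mice. Green points with standard errors are the genes named for the smallest p-values, and gray points are the other members. Of the 66 members, 57 lie within 0.25 of 0 on both axes, and no member was called on either axis.

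The interaction of genotype and housing tests whether the genotype effects differed between SC and EE. No member was called, nor was any gene (0%), and 5 members had an unadjusted p below 0.05 (3.15% of all genes), with no call by DESeq2 either. The smallest p-values among members were those of Epha10 (-0.38 ± 0.11), Epha1 (1.18 ± 0.48), Sema4f (-0.19 ± 0.08) and Sema5a (-0.31 ± 0.15), each with an edgeR adjusted p of 1. The 95% interval of the interaction ran from -0.62 to -0.14 for Epha10 and from -0.04 to 0.28 for Efnb3, so these data do not show that the genotype effect was equal in the housings. For Plxna3 it ran from -0.14 to 0.26 and for Sema7a from -0.30 to 0.14.

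Sequence upstream of the genes was taken from RefSeq (GRCm38.p6), which gave 71 start sites for 57 of the 66 members. Dcc, Efnb3, Ntn1, Plxna1, Plxna4, Sema3b, Sema3f, Sema6a and Unc5d were not matched. CBP was first known as a partner of CREB, which binds the cAMP response element, so the element and some common promoter motifs were searched on both strands in the 250 bases before each start. The half-site TGACG was found in 9.86% of the members' promoters and in 24.3% of 16259 promoters of genes tested here (17.8% of all 32851 promoters), and the full element TGACGTCA, which contains it, in 1.41% and 2.34% (1.55% of all). The AP-1 motif TGANTCA was found in 4.23% and 4.59% (6.75% of all), the GC box GGGCGG in 76.1% and 53.3% (32.7% of all), and the TATA box TATAAA in 1.41% and 6.99% (12.4% of all). Of the 17 called members with a matched promoter, 2 held TGACG (Ephb3 and Sema3d) and 12 held GGGCGG. A match describes letters in these windows only.

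The upstream sequences of the 2 called members with the half-site are shown first, with TGACG or its reverse complement in capitals. The window of Ephb3 is chr16:21204545-21204754 (plus strand) and that of Sema3d is chr5:12382916-12383165 (plus strand), both 5′ to 3′ and ending before the first annotated base of the gene. The annotated genes Ephb3 and Efna3 begin before the RefSeq start, so 210 and 224 of the 250 bases searched are printed for them, and all 250 for the other 4 genes.
Ephb3: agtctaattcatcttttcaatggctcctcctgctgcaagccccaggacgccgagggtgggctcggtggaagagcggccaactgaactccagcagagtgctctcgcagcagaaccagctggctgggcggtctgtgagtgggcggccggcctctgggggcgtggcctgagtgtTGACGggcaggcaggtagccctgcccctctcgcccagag
Sema3d: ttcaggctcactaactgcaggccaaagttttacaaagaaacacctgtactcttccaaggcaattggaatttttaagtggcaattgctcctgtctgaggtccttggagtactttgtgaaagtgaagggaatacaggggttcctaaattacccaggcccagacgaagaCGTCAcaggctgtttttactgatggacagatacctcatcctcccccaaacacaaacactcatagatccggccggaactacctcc

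For comparison, 4 members called in both housings are shown with the GC box in capitals on either strand, 1 each of the ephrin-A, class 3 semaphorin and GPI-anchored semaphorin genes that were lower, and the plexin gene that was higher. The windows are chr3:89322966-89323189 on the minus strand (Efna3), chr5:14025026-14025275 on the plus strand (Sema3e), chr9:57939862-57940111 on the plus strand (Sema7a) and chrX:74328816-74329065 on the plus strand (Plxna3). GC content of the printed bases ranged from 48% for Sema3e to 68% for Plxna3, and each printed stretch held 1 or 2 GC boxes.
Efna3: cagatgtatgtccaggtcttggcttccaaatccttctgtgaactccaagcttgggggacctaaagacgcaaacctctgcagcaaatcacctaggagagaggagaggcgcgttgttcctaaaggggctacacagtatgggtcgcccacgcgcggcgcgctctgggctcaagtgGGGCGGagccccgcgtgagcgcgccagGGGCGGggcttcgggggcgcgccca
Sema3e: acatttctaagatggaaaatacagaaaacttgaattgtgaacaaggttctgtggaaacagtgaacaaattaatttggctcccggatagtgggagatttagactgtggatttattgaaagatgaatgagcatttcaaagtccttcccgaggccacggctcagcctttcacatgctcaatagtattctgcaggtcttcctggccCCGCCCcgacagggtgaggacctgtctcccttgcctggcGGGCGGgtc
Sema7a: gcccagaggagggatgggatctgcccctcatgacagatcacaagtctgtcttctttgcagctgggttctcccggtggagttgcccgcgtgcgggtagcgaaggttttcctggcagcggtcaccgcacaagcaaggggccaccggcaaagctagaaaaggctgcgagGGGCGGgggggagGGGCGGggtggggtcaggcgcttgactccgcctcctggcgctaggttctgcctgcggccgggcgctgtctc
Plxna3: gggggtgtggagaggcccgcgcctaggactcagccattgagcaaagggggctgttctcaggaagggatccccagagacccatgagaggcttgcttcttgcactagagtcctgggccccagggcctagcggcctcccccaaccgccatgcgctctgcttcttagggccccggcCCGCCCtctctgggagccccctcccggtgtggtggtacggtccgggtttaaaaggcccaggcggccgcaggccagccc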

How the data were processed

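Hippocampal RNA of 12 mice was sequenced as 12 libraries in 2 runs each (24 runs, 50 bp single-end reads), and the authors merged the runs of each mouse. Per the labels and the study's methods, the authors trimmed reads with Trim Galore 0.6.4, aligned them to GRCm38 with STAR 2.6.1 and deposited raw counts per gene over exons. Gene length, in bases, is the other deposited value used. Total counts and the floor of 3 counts (0.0801 to 0.112 CPM) cover counting error only.

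Counts were used as deposited. Genes were kept by filterByExpr, scaled by TMM and tested with edgeR 4.0.16 (glmQLFit, glmQLFTest, R 4.3.3), with Benjamini-Hochberg adjustment over all genes tested. SC and EE genotype comparisons were fitted on 6 mice each, the others on 12. Standard errors were derived from the quasi-likelihood F. The code was tested on simulated data. Alternatives were DESeq2 1.42.0, its size factors, no filter, 1 CPM in 3 mice, a replicate block, halved CBP-ifKO counts, leaving out each mouse and, chosen after seeing the data, halved counts thinned to equal depth.

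Members and lists were chosen with earlier results of these data known. Named genes are all members called, the 5 on the study's list, the most abundant per family, the 4 smallest p-values in each housing comparison and the interaction, and partner genes called in SC or EE; genes described beside them were added after their values were seen.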

Additional observations from a re-analysis of the deposited data

Results flagged for a closer look

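Epha1, a low-abundance Eph receptor gene, was picked out because its groups, which are separate mice, did not overlap between the housings in either genotype and lay in opposite order in the 2 genotypes. Its counts were 14, 16 and 18 in controls in SC and 13, 9 and 12 in controls in EE, but 8, 10 and 12 in CBP-ifKOs in SC and 24, 16 and 14 in CBP-ifKOs in EE. In CPM, enriched controls (0.347 to 0.477) lay below controls in SC (0.519 to 0.653), and enriched CBP-ifKOs (0.411 to 0.62) above CBP-ifKOs in SC (0.239 to 0.346). The interaction was 1.18 ± 0.48 on the log2 scale (unadjusted p = 0.0266, edgeR adjusted p = 1), and in no setting was it called (adjusted p from 0.894 to 1). It is 1 of 66 members examined.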

How the results depend on the processing

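Member counts moved by over 1.5 times with no filter on low counts, where 19 were called in SC and 20 in EE (12 and 11 as reported), 2 for housing in controls (Epha7 and Sema7a) and 1 for housing in CBP-ifKOs (Epha10). DESeq2 also called 1 for housing in CBP-ifKOs (Sema4f). The cause was not tested. Leaving out 1 mouse gave 6 to 11 called members in SC, 6 to 14 in EE and 16 to 23 over both housings, the lowest counts in SC without any 1 of the 3 CBP-ifKOs and in EE without the Control EE replicate 3 sample. The interaction stayed at 0 called members under all settings run. Halving the even CBP-ifKO counts gave the reported 12, 11 and 19. Halving them and then thinning every library, controls included, to the smallest total gave 9, 12 and 18. The number of families with a call was 9 to 11 (10 as reported), and that of partner genes 8 to 16 (12 as reported).

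Deviations of same-numbered mice had a mean r of 0.048 over 18 pairs, 5 of them above 0.1, with a highest r of 0.305. The 36 other pairs had a mean r of -0.024, 1 of them above 0.1. Whether same-numbered mice belong together was not tested further, and the reported fits did not pair them. With the replicate block, 14 members were called in SC, 15 in EE and 23 over both housings, against 12, 11 and 19 as reported. For the members named by rule, in the comparisons that named them, 839 values kept direction and side of the threshold, 71 lost it, 10 gained it and none reversed. At these depths differences in Efna4, Epha1 and Unc5cl rest on 24 counts or fewer per mouse.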
